A study of Mus musculus with 3 samples.

Results

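The endothelial cells of lumbar mouse dorsal root ganglia (DRG) were examined in 433 single nuclei, chosen by their UMIs of marker genes from 19259 kept nuclei in 3 single-nucleus RNA-seq libraries. A nucleus was kept when more than 1000 genes were detected in it. It was counted as endothelial when it held 3 or more unique molecular identifiers (UMIs, each standing for 1 captured RNA molecule) of Flt1, Pecam1, Cdh5, Ptprb, Egfl7 and Emcn, from 2 or more of these genes, and when this sum was at least 2 times its UMIs of 7 genes of other cells. Those 7 genes were Snap25, Scn9a, Prx, Bcan, Ptprc, Notch3 and Col1a1. The adult library gave 211 endothelial nuclei of 11518 kept, the first aged library 159 of 5130 and the second aged library 63 of 2611. All libraries were made from L3 to L5 ganglia of C57BL/6 mice with a particle-templated method (PIP-seq), at 3 months of age for the adult library and 21 months for the aged ones, as the sample labels give it (the design text of the series gives another age). No treatment or transgene is named for any of them. The number of mice pooled in each library is not given in the sources used here, so that p-values measure the spread between libraries only.

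Endothelial cells line the blood vessels and the lymphatics. In the ganglion they supply a dense bed of capillaries around the neuronal somas, part of which is more permeable than the capillaries of the brain. Arteries, capillaries and veins differ in the genes that their endothelium uses, and endothelial cells send signals to neighbouring cells through secreted factors such as endothelin-1, CXCL12 and PDGF family ligands.

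Several properties of the libraries bear on the values that follow. The labels call the mice of all 3 libraries male, whereas the methods of the study describe the aged mice as female. Xist, the RNA that coats the inactive X chromosome of female cells, had a UMI in 91.0%, 84.9% and 88.9% of endothelial nuclei of the adult, first aged and second aged library. The Y-linked gene Eif2s3y had 0 UMIs in all of them, Uty had a UMI in 3, 1 and 0 nuclei and Kdm5d in 2, 1 and 0. Ddx3y, also Y-linked, had a UMI in 19, 10 and 2 nuclei. The Xist values went against the male label in all 3 libraries. The endothelial sums held 725185, 828877 and 416270 UMIs, with medians of 2550, 3281 and 4396 UMIs per nucleus. RNA free in the suspension, estimated from neuronal genes, made up 25.97%, 12.7% and 9.75% of these sums, so that it moved with age. A few large nuclei, with more than 5 times the median of their library, numbered 2, 6 and 2 and held 5.89%, 21.9% and 16.2% of the UMIs. No endothelial barcode was shared between libraries.

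The promoters of 3 of the genes with the highest endothelial ratios are shown because they hold short motifs of factor families known from endothelial cells. The sequences are RefSeq windows on GRCm38.p6, from 250 bases before the start of transcription to 50 bases after it, and capitals mark the motifs. The Edn1 window (chr13:42301226-42301525, plus strand) holds a GATA motif (AGATAA, here as its reverse complement TTATCT) and an AP-1 motif (TGACTAA). The Robo4 window (chr9:37401722-37402021, plus strand) and the Ushbp1 window (chr8:71395752-71396051, minus strand) hold an ETS motif (CAGGAAG, or its reverse complement CTTCCTG).
Edn1: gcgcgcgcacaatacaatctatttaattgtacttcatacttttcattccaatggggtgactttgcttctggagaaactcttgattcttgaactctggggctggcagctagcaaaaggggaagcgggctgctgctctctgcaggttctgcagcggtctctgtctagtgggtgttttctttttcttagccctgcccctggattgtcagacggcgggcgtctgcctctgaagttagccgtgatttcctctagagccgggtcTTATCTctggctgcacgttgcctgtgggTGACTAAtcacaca
Robo4: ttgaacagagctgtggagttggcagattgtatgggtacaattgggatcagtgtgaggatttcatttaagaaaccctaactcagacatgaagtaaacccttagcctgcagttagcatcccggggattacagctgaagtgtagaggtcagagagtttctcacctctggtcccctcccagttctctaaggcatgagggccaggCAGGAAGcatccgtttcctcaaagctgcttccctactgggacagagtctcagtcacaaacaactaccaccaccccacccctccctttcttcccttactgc
Ushbp1: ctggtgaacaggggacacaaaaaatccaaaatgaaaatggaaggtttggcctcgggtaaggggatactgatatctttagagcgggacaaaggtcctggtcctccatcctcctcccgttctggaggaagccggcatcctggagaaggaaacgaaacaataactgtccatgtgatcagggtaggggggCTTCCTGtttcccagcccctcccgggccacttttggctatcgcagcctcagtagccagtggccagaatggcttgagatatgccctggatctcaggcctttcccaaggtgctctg
On both strands, the GATA letters were found in 11.2% of 32851 such windows of the genome, the AP-1 letters in 2.35% and the ETS letters in 13.3%. Of the 15 genes with the highest ratios, 11 had a window, of which 2 held the GATA letters, 1 the AP-1 letters and 3 the ETS letters. A match is a description of the letters and not of a bound site.

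The label of the nuclei was checked with 28 endothelial genes outside the gate. Every one of the 28 was more than 4 times as high in CPM (UMIs of a gene scaled to a common total in each sum) in endothelial sums as in all other kept nuclei together. Their summed level was 8628, 11805 and 10772 CPM in the adult, first aged and second aged library, against 365, 454 and 451 CPM in the other nuclei. At least 3 UMIs of these genes were found in 90.0%, 96.2% and 93.7% of endothelial nuclei, and in 29.2%, 41.4% and 44.7% of fibroblast nuclei gated in the same way. The weakest members, with 3 or 4 UMIs of the gate genes, numbered 28, 12 and 5, and held medians of 2.50, 5 and 4 UMIs of the 28 genes, against 29, 53 and 60.5 in the rest. Just inside the gate, with exactly 3 UMIs, lay 14, 6 and 2 nuclei, and just outside it, with 2 UMIs from 2 genes, lay 29, 12 and 3. A further 617, 266 and 118 nuclei had enough UMIs of the 6 genes but too many of the 7 others.

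Markers of other cells were present in the endothelial sums, and they moved with age. Neuronal markers (18 genes, none at 0) summed to 4919, 3501 and 2395 CPM, against 10061, 10272 and 8323 CPM in the other nuclei. Myelinating Schwann cell markers (8 genes) summed to 1507, 538 and 202 CPM. Non-myelinating Schwann cell markers (7 genes, Sox10 among them) summed to 3424, 1825 and 1050 CPM, and satellite glial markers (10 genes) to 1415, 1334 and 1011 CPM. Mural markers (11 genes, of pericytes and smooth muscle) summed to 2306, 1998 and 1739 CPM. The fibroblast list (10 genes) was at 983, 647 and 932 CPM, and the erythroid list (7 genes, hemoglobins among them) at 710, 875 and 2126 CPM. Macrophage markers (10 genes) were at 93.8, 171 and 187 CPM, and of the 10 lymphocyte markers Cd3e and Cd3g were at 0. On average the satellite glial (ratio 1.38), mural (1.18), fibroblast (1.52), macrophage (1.38) and erythroid (6.34) lists were higher than in the other nuclei. The neuronal (0.377), myelinating Schwann (0.601), non-myelinating Schwann (0.279) and lymphocyte (0.70) lists were lower. The gate limited the UMIs of its 7 other genes, and these belong to some of the lists. They are Snap25 and Scn9a (neuronal), Prx (myelinating Schwann), Bcan (satellite glial), Notch3 (mural), Col1a1 (fibroblast) and Ptprc (macrophage). The levels of those lists are therefore partly set by the gate and are a description. The part of the marker RNAs of other cells in the differences by age was not tested beyond the settings given with each result.

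The 6 gate genes were used to choose the nuclei, so their levels are a description. Flt1, which encodes VEGF receptor 1 (chromosome 5), was the most abundant of them, at 2118, 2109 and 2174 CPM. Ptprb, the phosphatase of the TIE2 receptor complex, was at 876, 915 and 920 CPM. Emcn, the sialomucin endomucin, was at 623, 674 and 685 CPM. Pecam1, an adhesion molecule of endothelial junctions, was at 575, 519 and 500 CPM, and Egfl7, a secreted factor, at 608, 448 and 423 CPM. Cdh5, the cadherin of endothelial junctions, was the lowest, at 257, 218 and 243 CPM. All 6 genes were detected together in 33, 51 and 20 nuclei, and 38.4%, 40.3% and 34.9% of the nuclei held no UMI of the 7 other genes.

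Outside the gate, the 15 genes with the highest ratio of mean level in endothelial sums over the other nuclei included several with well known vascular roles. The mean is over 1 adult and 2 aged libraries, and the order of the genes can differ within a library. Clec14a, an endothelial lectin, had the highest ratio, 262, with a mean of 73.0 ± 30.7 CPM (SD, n = 3). Edn1, the precursor of endothelin-1 (chromosome 13, 42301476 to 42307990 on GRCm38), had a ratio of 260.5, with 174, 113 and 50.4 CPM in the 3 libraries. Slco1a4, an organic anion transporter of brain capillaries, was by far the most abundant of the 15, at 812, 1597 and 1235 CPM with a ratio of 253. The transcription factor gene Sox17, known from arterial endothelium, had a mean of 270 ± 83.7 CPM and a ratio of 230. Robo4, a receptor that stabilises vessels, had a mean of 119 ± 22.5 CPM and a ratio of 204. Car4, a carbonic anhydrase on the capillary surface, had a mean of 83.1 ± 19.0 CPM and a ratio of 207. Adgrl4, an adhesion receptor of growing vessels, had a mean of 792 ± 202 CPM and a ratio of 166. The others were Ushbp1, 1810006J02Rik, Dipk2b, Gm42716, Fendrr, Gm609, Myct1 and Fam110d, with ratios between 153 and 252.

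**Figure D1:**
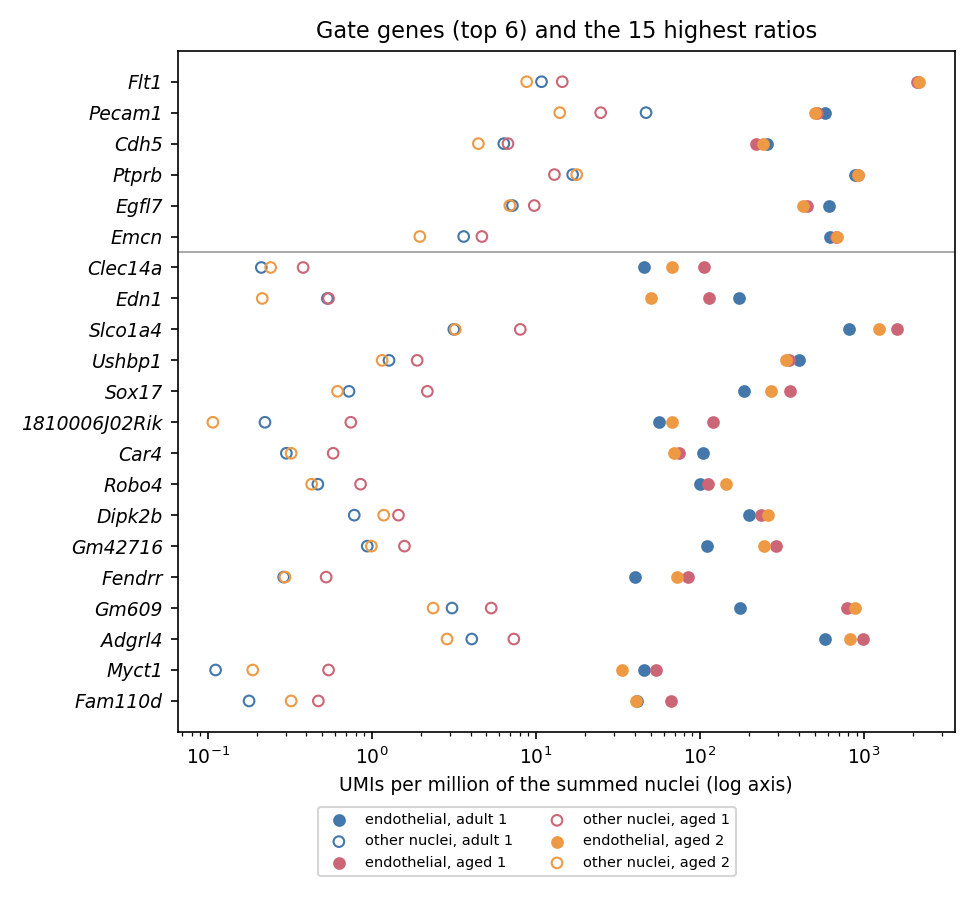
Level (CPM of the summed nuclei, log axis) of the 6 gate genes and of the 15 genes with the highest ratios, in endothelial nuclei (filled) and all other kept nuclei (open) of the adult, first aged and second aged library. The gate genes chose the nuclei, so the separation is a description, and Edn1 lies at 174, 113 and 50.4 in endothelial nuclei with a mean of 0.432 in the others.

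Gene groups of the vessel wall were described by their summed levels. Barrier-type genes (25 transporters and junction genes of brain capillaries) summed to 7583, 9812 and 8941 CPM, and 21 of the 25 were more than 4 times as high as in the other nuclei. Permeable-type genes (15) summed to 2296, 2524 and 2462 CPM, and 9 were more than 4 times as high. Within the first group, Abcb1a, which encodes the efflux pump P-glycoprotein, was at 820 CPM in the adult and at 1314 and 982 CPM in the aged libraries. Mfsd2a, a lipid transporter of the blood-brain barrier, was at 193, 245 and 307 CPM. Slc2a1, the glucose transporter GLUT1, was at 226, 263 and 243 CPM, and Cldn5, the main claudin of endothelial tight junctions, at 327, 300 and 269 CPM. Plvap, which forms the diaphragms of fenestrated endothelium, was at 71.7, 123 and 86.5 CPM.

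Markers of the arterial side summed to 1179, 1539 and 1302 CPM, of capillaries to 1998, 2497 and 2124 CPM, and of veins to 1514, 1822 and 2124 CPM. Lymphatic markers were the lowest, at 208, 147 and 324 CPM, and Prox1, the factor that sets lymphatic identity, had a UMI in 3, 3 and 1 nuclei. The arterial list was only 1.43 times as high as in the other nuclei, and nuclei were not assigned to vessel types. In free RNA the arterial list was higher, at 1753, 1955 and 1916 CPM. It holds Stmn2, whose product the study used as a marker of regenerating axons, so that its sum is not a level of arterial cells alone. The arterial connexins were rare. Gja4 (connexin 37) had a UMI in 3, 5 and 2 nuclei and Gja5 (connexin 40) in 1, 1 and 3.

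The nuclei differed among themselves in their barrier-type genes. Slco1a4 had a UMI in 51.7%, 73.0% and 74.6% of the nuclei (exact 95% intervals 44.7 to 58.6%, 65.3 to 79.7% and 62.1 to 84.7%). In fibroblast nuclei, with medians of 2713, 3889 and 4388 UMIs, the share was 1.15%, 2.25% and 0.930%. After thinning each nucleus to 1000 UMIs the endothelial shares were 37.4%, 55.3% and 55.6%. Both aged libraries were above the adult one at equal depth. With 1 library against 2, an exact permutation test of this difference cannot give a p below 0.333.

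Nuclei with and without a Slco1a4 UMI were summed separately, leaving out the large nuclei, which left 107 and 102 nuclei in the adult library, 110 and 43 in the first aged and 46 and 15 in the second aged library. This split was chosen after its values were seen. Their median depths were close, at 2535 and 2438, 3362 and 2994, and 4134 and 4127 UMIs. Barrier-type genes other than Slco1a4 summed to 9175, 10651 and 11288 CPM in the nuclei with it, and to 3417, 4105 and 1830 CPM in those without. The 28 endothelial genes were also higher in the nuclei with Slco1a4, at 10589, 13889 and 14716 CPM against 6382, 10215 and 4281 CPM. So were the gate genes Flt1 (2839, 2610 and 3182 CPM against 1315, 1634 and 651 CPM) and Emcn (741, 821 and 889 CPM against 486, 553 and 279 CPM), so that the contrast was not confined to barrier-type genes. Capillary markers followed the same order, with 2674, 3421 and 3242 CPM against 899, 930 and 558 CPM. Venous markers had the opposite order, with 1392, 1621 and 1651 CPM against 1696, 2571 and 2616 CPM.

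Single genes differed in their order. Mfsd2a was at 251, 319 and 504 CPM with Slco1a4 and at 83.2, 75.4 and 10.3 CPM without it, and Car4 was at 162, 123 and 115 CPM with it and at 0 without it. Nr2f2, a transcription factor of venous identity, was at 270, 121 and 91.2 CPM with Slco1a4 and at 474, 553 and 682 CPM without. It is not confined to veins here, with a UMI in 54.4%, 71.2% and 69.3% of fibroblast nuclei. In endothelial nuclei those shares were 49.8%, 34.6% and 38.1%. Fabp4, a fatty acid binding protein, was at 5.40, 20.5 and 0 CPM with it and at 128, 201 and 145 CPM without. Chrm3, a muscarinic acetylcholine receptor, was at 438, 387 and 143 CPM against 777, 578 and 703 CPM. Vwf, also of the venous list, was higher with Slco1a4 in each library (481, 692 and 690 CPM against 323, 572 and 227.5 CPM). Selp was at 21.6, 18.4 and 11.9 CPM against 60.8, 31.4 and 10.3 CPM, and Ackr1 at 16.2, 20.5 and 19.8 CPM against 44.8, 12.6 and 20.7 CPM. In the first aged library these were 9 and 5 Selp UMIs and 10 and 2 Ackr1 UMIs. In the second they were 3 and 1, and 5 and 2, too few to give an order in the aged libraries. Fibroblast markers were also higher without Slco1a4 (1436, 1169 and 1768 CPM against 676, 458 and 210 CPM), while neuronal markers were lower (4236, 3319 and 1096 CPM against 5531, 3603 and 2519 CPM). Their part in this contrast was not tested. Permeable-type genes (2468, 2538 and 2781 CPM with Slco1a4, 2134, 3149 and 1603 CPM without) and arterial markers (1200, 1218 and 1266 CPM with it, 1216, 2722 and 920 CPM without) had no common order.

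**Figure D2:**
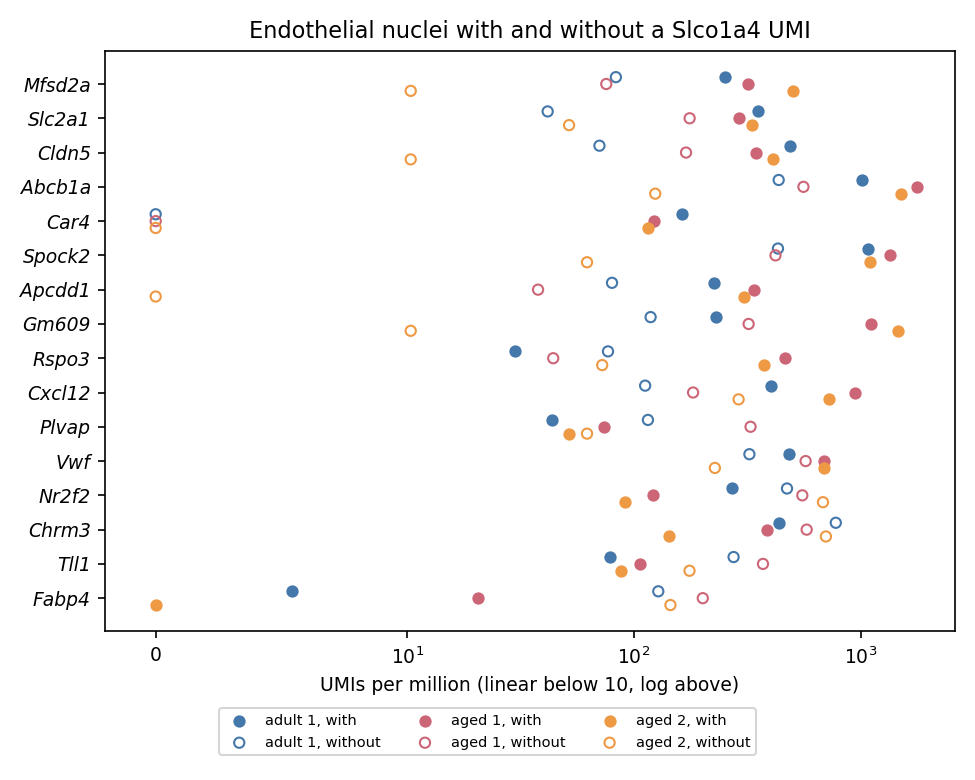
Level (CPM, linear below 10 and log above) of 16 genes in endothelial nuclei with a Slco1a4 UMI (filled) and without one (open), by library and without the large nuclei. Mfsd2a, Slc2a1, Cldn5 and Abcb1a lie higher in the filled points of each library and Nr2f2, Chrm3, Tll1 and Fabp4 in the open ones.

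Whether the share of endothelial nuclei changed with age was asked next. It was 1.83% in the adult library (exact Clopper-Pearson 95% interval 1.60 to 2.09%), 3.10% in the first aged library (2.64 to 3.61%) and 2.41% in the second (1.86 to 3.08%). The aged mean was 2.76% ± 0.486 (SD, n = 2), 1.505 times the adult value. The 2-sided exact permutation p over the libraries was 0.667, and the smallest that 1 library against 2 allows is 0.333. The intervals cover counting error only. With nuclei of more than 500 genes, the second aged library (1.70%) was below the adult one (1.85%), and a different number of endothelial cells and a different recovery of their nuclei cannot be told apart.

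**Figure D3:**
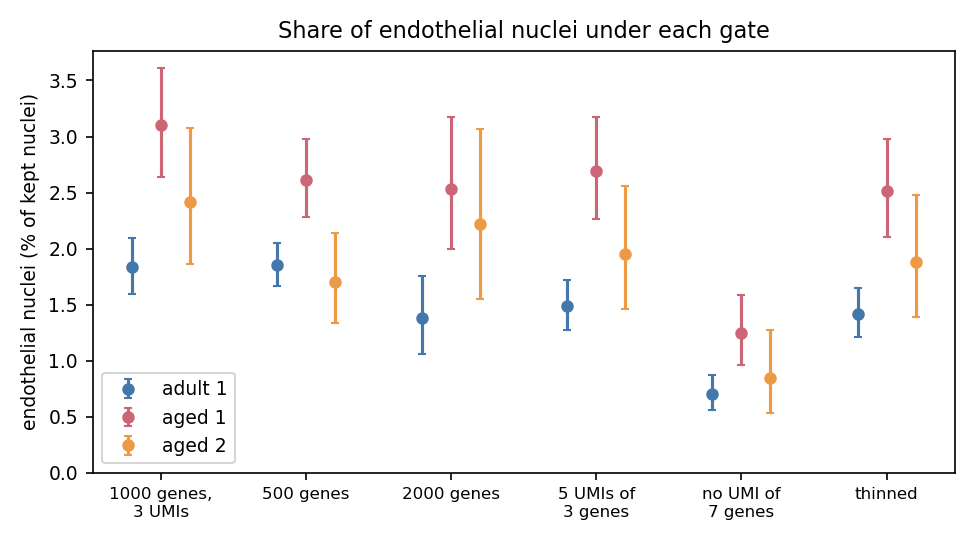
Endothelial nuclei as a percentage of kept nuclei in each library (points, with exact 95% intervals for counting error) under the gate used and 5 other settings. The first aged library lies above the adult one in all settings and the second aged library above it in all but the setting of 500 genes.

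Genes were then compared by age in the endothelial sums. With edgeR's quasi-likelihood test as designed, none of 11251 genes passed an adjusted p of 0.05 (0% called, smallest adjusted p = 0.370), while 753 had an unadjusted p under 0.05. Only the spread between the 2 aged libraries informs the error (1 residual degree of freedom), and the adult library is assumed to vary as they do. DESeq2 called 11 genes. With free RNA subtracted edgeR called 0.833% of 10089 genes (0.436% higher, 0.396% lower), and without the large nuclei 2.62% of 10818 (0.943% higher, 1.67% lower). The count depended strongly on how the variance was estimated. A robust estimate of the prior variance, which was tried only after the designed fit had called no gene, called 332 genes (2.95% of those tested), 82 higher (0.729%) and 250 lower (2.22%) in the aged libraries. Those genes are therefore described by their values and not as changed. Many of the lower ones were also lower in fibroblast sums. Of 249 tested there, 203 had the same sign and the designed fit called 138, beside 4.92% of all genes called lower in fibroblast sums. Of 72 higher ones tested there, 48 had the same sign and 22 were called, beside 4.2%. In simulated sums with the same depth, the designed fit recovered 0% of 4-fold changes when all genes shared 1 trend of dispersion, and 63% when the dispersion varied between genes, with 18 false among 88 calls. The robust fit recovered 65% and 69%, with 6 false among 87 calls and 20 false among 97.

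**Figure D4:**
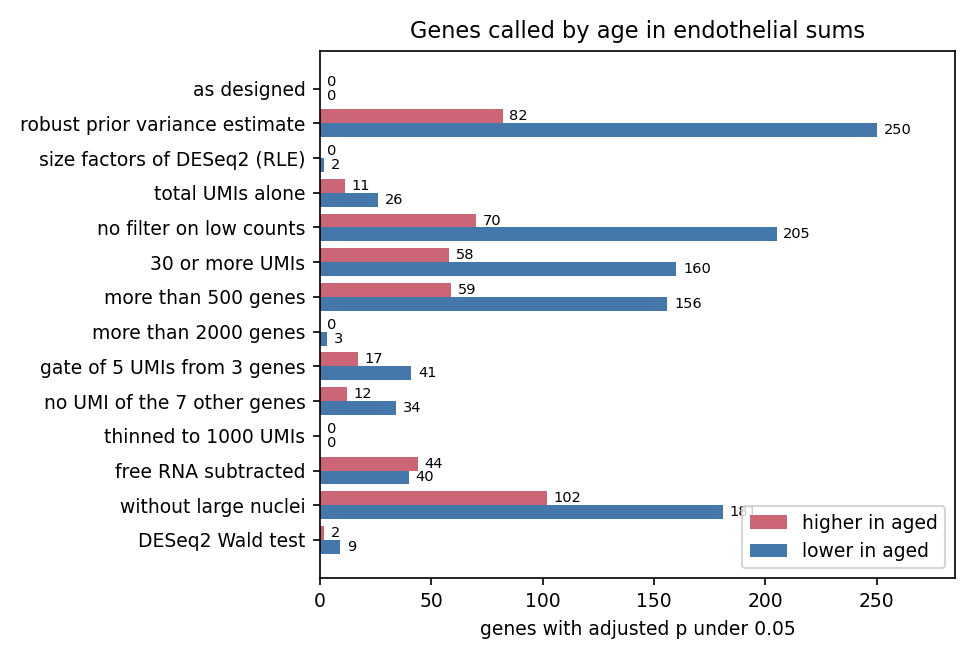
Number of genes with an adjusted p under 0.05 in endothelial sums, higher (red) or lower (blue) in the aged libraries, under the designed fit and 13 alternatives. The designed fit called 0 genes, the fit of thinned nuclei 0, and the robust prior 82 and 250.

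Signals that endothelial cells send showed the following values by age. Adult endothelial nuclei held 126 Edn1 UMIs in 26 nuclei (174 CPM), and aged ones 94 UMIs in 26 nuclei (113 CPM) and 21 in 9 (50.4 CPM). Both aged values were below the adult one (log2 -1.10, SE 0.51, and an edgeR adjusted p = 0.700), and the aged libraries differed from each other by as much. The log2 fold change of Edn1 by age was -1.86 without the first and -0.67 without the second aged library, and -0.20 in nuclei with no UMI of the 7 other genes. An Edn1 UMI was found in 12.3%, 16.4% and 14.3% of nuclei, against 0.287%, 1.13% and 0.465% of fibroblast nuclei, and in 9.005%, 5.66% and 6.35% after thinning to equal depth. Vegfc, a growth factor of lymphatic and venous vessels, was at 20.7, 104 and 64.9 CPM (log2 fold change 1.97, SE 0.48). Pdgfd, a ligand for the PDGF receptor of pericytes, was at 272, 639 and 536 CPM (1.03, SE 0.22). Cxcl12, a chemokine that attracts leukocytes, was at 284, 648 and 509 CPM (0.95, SE 0.25). In fibroblast sums the log2 fold change by age was 1.51 for Cxcl12, 0.57 for Vegfc and 0.57 for Pdgfd. In all other nuclei it was 1.25, 0.30 and -0.11, so that the difference of Cxcl12 was not particular to endothelial sums. For Vegfc, Pdgfd and Cxcl12 by age in endothelial sums, edgeR's adjusted p was 0.700.

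Receptors and enzymes of the vessel wall were read next. Ece1, which cleaves the endothelin precursor, was at 272, 227 and 202 CPM (log2 fold change -0.42, SE 0.21). Ednrb, the endothelin B receptor, was at 41.4, 24.1 and 14.4 CPM (-1.11, SE 0.45), with both aged libraries below the adult one. On average it was no higher than in the other nuclei (ratio 0.982), where it was at 34.2, 27.2 and 19.9 CPM. It belongs to the satellite glial list, and the study found it enriched in those cells. In free RNA Ednrb was at 30.6, 24.1 and 18.1 CPM. The part of RNA from other cells in its endothelial values was not tested. Nos3, the endothelial nitric oxide synthase, was at 80.0, 129 and 67.3 CPM, with the aged libraries on either side of the adult one. Kdr, VEGF receptor 2, was at 105, 181 and 139 CPM (0.54, SE 0.29), and Tek, the angiopoietin receptor TIE2, at 216, 455 and 363 CPM (0.84, SE 0.25). Calcrl, a receptor for CGRP and adrenomedullin, was at 270, 455 and 577 CPM (0.84, SE 0.25). The log2 fold change of Calcrl by age was 0.21 in nuclei with no UMI of the 7 other genes and 1.99 in those with more than 2000 genes. Vwf, the clotting factor stored in endothelial granules, was at 412, 646 and 632 CPM (0.55, SE 0.18). Gja1 (connexin 43) was at 73.1, 92.9 and 93.7 CPM (0.27, SE 0.26), and Cdkn1a, the cell cycle inhibitor p21, at 30.3, 27.8 and 26.4 CPM (-0.24, SE 0.36). None of these passed the test, which called 0 of all 11251 genes.

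The designed test called 0 of 11251 genes, so no list could hold a called gene, and the lists are described by their medians. Over all genes tested the median log2 fold change was -0.0049. It was 0.25 over the 28 endothelial genes, 0.10 over 23 tested barrier-type genes, 0.03 over 14 permeable-type genes and 0.23 over 18 junction genes. It was -0.42 over 23 vasoactive genes, 0.17 over 24 genes of VEGF, TIE and TGF-beta signalling, 0.06 over 17 Notch and ephrin genes and -0.65 over 6 genes of angiogenic tip cells. The medians were 0.50 over 11 arterial, -0.09 over 12 capillary, 0.55 over 11 venous and -0.08 over 6 lymphatic genes. They were 0.11 over 56 interferon-inducible genes, 0.18 over 27 leukocyte adhesion genes, 0.01 over 29 matrix genes, -0.37 over 16 lipid handling genes, 0.10 over 15 senescence genes and -0.45 over 17 immediate early genes. With free RNA subtracted, the median over all genes was 0.04 and that of the 28 endothelial genes 0.02. The sign of 6 of these lists turned under this subtraction, with medians of -0.13 for barrier-type, -0.06 for permeable-type, -0.06 for interferon-inducible, -0.17 for matrix, -0.02 for VEGF, TIE and TGF-beta and -0.08 for Notch and ephrin genes.

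Among the genes that the robust fit called and the designed fit did not, 50 had a mean level at least 4 times that in the other nuclei. That was 5.62% of 890 such genes, against 2.72% of the other 10361. The ratio weights the aged libraries 2 to 1, so that a gene higher in them reaches it more easily. The 2 shares can therefore not be compared, and the directions of the 50 genes are not counted. Gm609, a predicted gene of unknown role (chromosome 16, 45411768 to 45492969), was at 175 CPM in the adult and at 787 and 884 CPM in the aged libraries (log2 fold change 2.17, SE 0.21), and 10 of 13 alternative fits called it. In nuclei with a Slco1a4 UMI it was at 230, 1116 and 1456 CPM. In those without one Gm609 was at 118, 321 and 10.3 CPM, with 1 aged library above the adult one. The other lay below it, with only 1 Gm609 UMI in 15 nuclei. Cyp2e1, a cytochrome P450, had 3 UMIs in the adult and 68 and 23 in the aged libraries, a ratio of 17.7 (counting interval 5.86 to 87.3). Maob, which oxidises monoamines, was at 6.89, 66.4 and 57.6 CPM (3.06, SE 0.41). Malat1, an abundant nuclear RNA, was at 48153, 17466 and 16912 CPM (-1.57, SE 0.06), and 12 of 13 alternative fits called it lower in the aged libraries. Bc1, a noncoding RNA, was at 339, 6.03 and 7.21 CPM (-5.76, SE 0.30), and 11 of 12 alternative fits called it lower. In all other nuclei the log2 fold change was -1.83 for Malat1 and -6.18 for Bc1. In fibroblast sums of the same libraries it was -1.47 for Malat1 and -6.77 for Bc1. The designed fit called 9.12% of 14383 genes in those sums, 4.2% higher and 4.92% lower.

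Differences by age in endothelial nuclei were set against those in all other kept nuclei of the same libraries, with library as a block. The other nuclei are a mixture of classes, and their macrophage list was at 90.5, 126 and 111 CPM and their satellite glial list at 966.5, 1068 and 684 CPM. The part of that mixture in the differences was not tested. In this edgeR test 60 of 21467 genes passed (0.279%). The aged minus adult difference in endothelial sums was larger for 28 (0.13%) and smaller for 32 (0.149%). Like the age test, this test has 1 residual degree of freedom and 1 adult library. In simulated sums of the test against fibroblast nuclei, with dispersion varying between genes, 12 of 75 calls were false. That fit recovered 59% of 4-fold and 4% of 2-fold changes. Sums for all other nuclei were not simulated. Among the 60, 20 had a mean level at least 4 times that in the other nuclei. Since that mean weights the aged libraries 2 to 1, genes high in them pass it more easily, and their directions are not counted. Not all of the 20 reached 4 times in the adult library alone. There Sntg2 was at 16.6 against 8.30 CPM, Meis2 at 89.6 against 44.6 CPM and Pdgfc at 49.6 against 23.5 CPM. The genes named from this test were chosen after their values were seen. Rspo3, which amplifies Wnt signals, was at 74.5, 323 and 245 CPM in endothelial sums and at 14.0, 8.72 and 9.92 CPM in the other nuclei. Its difference of log2 fold changes was 2.60 (SE 0.38, adjusted p = 4.25e-08 by edgeR). Both aged libraries were above the adult one in endothelial nuclei and below it in the others. In nuclei with a Slco1a4 UMI, Rspo3 was at 29.7 CPM in the adult and at 463 and 373 CPM in the aged libraries. In nuclei without one it was at 76.8, 44.0 and 72.4 CPM. These are only 24, 7 and 7 Rspo3 UMIs in 102, 43 and 15 nuclei, too few to order the libraries. Without the large nuclei its difference of log2 fold changes was 3.38.

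Further genes of transcription and signalling had a larger difference in endothelial nuclei than in all other kept nuclei together. Rspo3, Nr5a2, Pdgfc, Meis2 and Gm609 (adjusted p = 0.268 by edgeR) did not pass the test against fibroblast nuclei, while Mgp did. Nr5a2, a nuclear receptor, was at 86.9, 226 and 267 CPM, against 3.69, 2.13 and 1.42 CPM in the other nuclei (difference 2.60, SE 0.39, adjusted p = 2.14e-07 by edgeR). Pdgfc, a PDGF family ligand, was at 49.6, 206 and 192 CPM against 23.5, 31.3 and 20.6 CPM (1.94, SE 0.40, adjusted p = 0.00161 by edgeR). Meis2, a homeobox factor, was at 89.6, 273 and 370 CPM against 44.6, 52.8 and 43.5 CPM (1.78, SE 0.36, adjusted p = 0.00161 by edgeR). Gm609 passed the same test (difference 2.06, SE 0.38, adjusted p = 1.24e-04 by edgeR). The difference of Gm609 was 2.79 without the first and 1.46 without the second aged library. Mgp, an inhibitor of calcification, showed another form of the difference. It was at 284, 484 and 307 CPM in endothelial sums, with the second aged library near the adult one, and at 33.3, 13.7 and 9.24 CPM in the other nuclei (2.08, SE 0.35, adjusted p = 7.78e-06 by edgeR).

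Interferon-inducible genes were high in endothelial nuclei at both ages. The 60 listed genes summed to 4875, 5805 and 5811 CPM, against 813, 1398 and 1104 CPM in the other nuclei, and 32 were more than 4 times as high. A pair of them, the GTPase genes Iigp1 and Gbp4, had a smaller aged minus adult difference than in all other kept nuclei together, beside 0.149% of all genes tested. Neither passed the test against fibroblast nuclei. Iigp1 was at 233, 236.5 and 274 CPM in endothelial sums and at 5.53, 27.7 and 12.2 CPM in the other nuclei (difference -1.58, SE 0.35, adjusted p = 0.00757 by edgeR). Gbp4 was at 132, 185 and 209 CPM against 2.01, 13.9 and 5.19 CPM (-1.51, SE 0.38, adjusted p = 0.0418 by edgeR). Stab1, a scavenger receptor of sinusoidal endothelium and macrophages, was at 192, 106 and 120 CPM against 4.38, 11.7 and 13.7 CPM (-2.22, SE 0.38, adjusted p = 1.07e-05 by edgeR). Without the first aged library the differences of Iigp1 and Gbp4 were -0.84 and -0.63, and without the second both were -2.22. Gbp4 lost its call without the large nuclei (adjusted p = 0.0894 by edgeR) and with the size factors of DESeq2 (adjusted p = 0.0693 by edgeR).

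**Figure D5:**
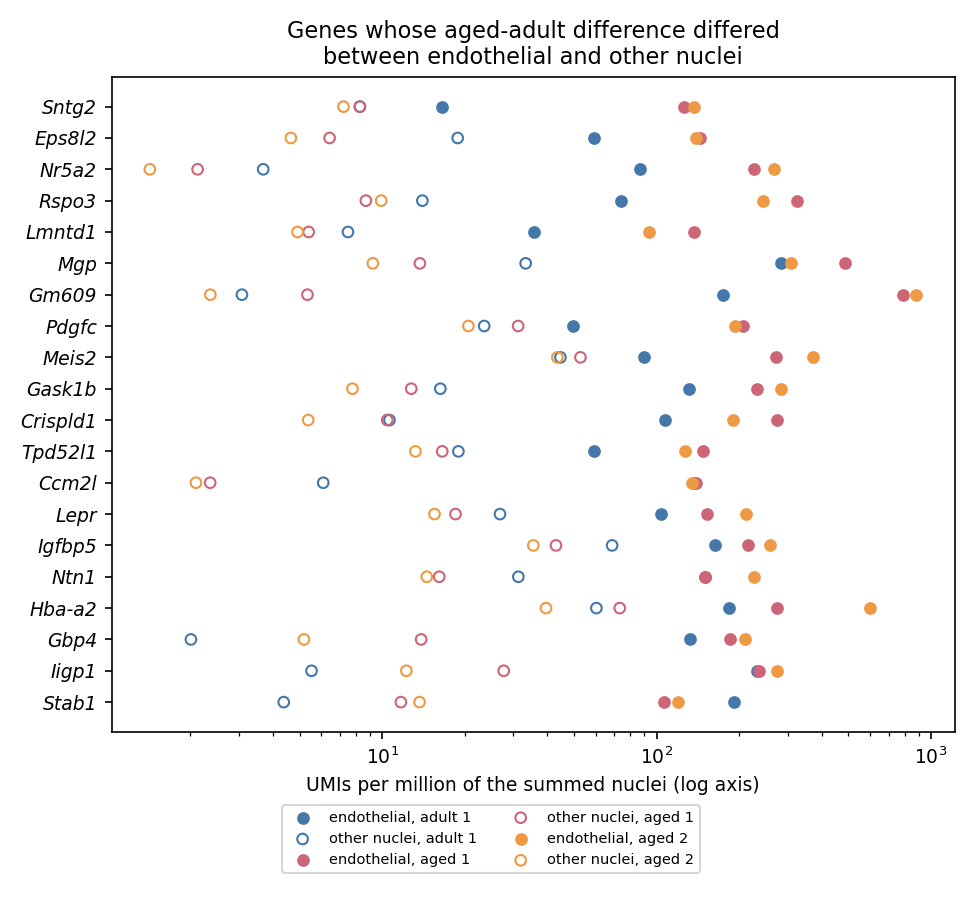
Level (CPM of the summed nuclei, log axis) in endothelial nuclei (filled) and all other kept nuclei (open), by library, of the 20 genes at least 4 times as high in endothelial nuclei whose aged minus adult difference differed between both classes. For Rspo3, Nr5a2, Pdgfc and Meis2 both aged endothelial points lie above the adult one.

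Fibroblast nuclei, another stromal class, numbered 1046, 444 and 215. Against them 46 of 13091 genes differed in their age effect (0.351%), 6 larger (0.0458%) and 40 smaller (0.306%) in endothelial sums. This test too had 1 residual degree of freedom, and 12 of 75 calls were false in its simulation with varying dispersion. Sntg2, which encodes a syntrophin, was at 16.6, 125.5 and 137 CPM in endothelial sums and at 18.7, 19.1 and 15.6 CPM in fibroblast sums (difference 3.08, SE 0.50, adjusted p = 0.0464 by edgeR). Epas1, which encodes the hypoxia factor HIF-2 alpha, was at 338, 650 and 550 CPM against 97.2, 54.8 and 53.8 CPM (1.70, SE 0.28, adjusted p = 0.0470 by edgeR). Lmntd1, Mgp, Igfbp5 and Samd12 were the other genes with a larger difference in endothelial sums. Genes with a smaller one included Sox10, a transcription factor of glia. It was at 55.2, 10.9 and 12.0 CPM in endothelial sums and at 63.0, 131 and 117 CPM in fibroblast sums (difference -3.25, SE 0.46, adjusted p = 0.0232 by edgeR), beside 1507, 538 and 202 CPM of the myelinating Schwann cell list in the same sums.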

How the data were processed

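Nuclei of L3 to L5 DRG were profiled by PIP-seq. Per the labels and the methods of the study, the authors aligned reads with Pipseeker to mm10 and deposited raw UMI counts per gene and barcode, 1 matrix for each library (167664164, 95647106 and 69045987 UMIs). Members and gene lists were chosen with earlier results of these data known. Counts were summed per library over the gated nuclei, and doublets were not called. Sums were tested with edgeR 4.0.16 (quasi-likelihood test, TMM scaling, filterByExpr, Benjamini-Hochberg adjustment over all genes tested, threshold 0.05) in R 4.3.3, as aged against adult and as the interaction of class and age with library as a block. CPM are UMIs scaled to a common total in each sum. Scripts were tested on simulated data. The robust prior, the removal of large nuclei and the split by Slco1a4 were chosen after seeing the data. Other alternatives were DESeq2 1.42.0, other scalings, filters and gates, thinning to 1000 UMIs and subtraction of free RNA, taken from barcodes of 10 to 100 UMIs and scaled by neuronal genes. Named genes were the 6 gate genes, the 15 highest ratios among genes with 50 or more UMIs, up to 10 called genes each way by age, up to 8 with a ratio of 4 or more, up to 4 called genes of each list, and 18 genes fixed by name. As the age test called none, genes named from other fits were chosen after their values were seen. Coordinates are those of GENCODE M21, which held 32098 of 32227 genes. The intervals cover counting error only.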

Additional observations from a re-analysis of the deposited data

Results flagged for a closer look

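Differences of age effects that passed edgeR's test stand below as the aged minus adult log2 fold change in endothelial sums minus that in the compared nuclei, for genes at least 4 times as high in endothelial nuclei or in a vascular list. Against all other kept nuclei the value was 3.14 for Sntg2, 3.09 for Eps8l2, 2.60 for Nr5a2, 2.60 for Rspo3, 2.30 for Lmntd1, 2.08 for Mgp and 2.06 for Gm609. It was 1.94 for Pdgfc, 1.78 for Meis2, 1.72 for Gask1b, 1.64 for Crispld1, 1.63 for Tpd52l1, 1.52 for Ccm2l and 1.52 for Lepr. It was 1.41 for Igfbp5, 1.38 for Ntn1 and 1.37 for Hba-a2, a hemoglobin gene of red cells that was at 183, 274 and 601 CPM in endothelial sums and whose value was 2.39 without the first aged library and 0.38 without the second. It was -1.51 for Gbp4, -1.58 for Iigp1, -2.22 for Stab1 and -2.95 for Agtr1a, the angiotensin receptor. By adjusted p, Agtr1a (0.256), Igfbp5 (0.331), Ntn1 (0.184) and Gbp4 (0.0894) lost their edgeR call without the large nuclei. Hba-a2 lost its call with the size factors of DESeq2 (adjusted p = 0.0542 by edgeR).

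Against fibroblast nuclei the value was 3.08 for Sntg2, 2.94 for Lmntd1, 2.25 for Mgp, 1.85 for Igfbp5 and 1.70 for Epas1. Ccm2l, which is needed in the endothelium of the heart and vessels, was level in endothelial sums (136, 139 and 134 CPM), and at 6.10, 2.36 and 2.10 CPM in the other nuclei.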

How the results depend on the processing

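The number of genes called by age was 0 in the designed fit, and 332 with the robust prior, 2 with the size factors of DESeq2, 37 with total UMIs alone, 275 without a filter, 218 with 30 or more UMIs, 215 with nuclei of more than 500 genes, 3 with more than 2000, 58 with the stricter gate, 46 with no UMI of the 7 other genes, 84 with free RNA subtracted, 283 without the large nuclei and 11 with DESeq2. In the same order, omitting settings that also gave 0, the calls higher in the aged libraries numbered 82, 11, 70, 58, 59, 17, 12, 44, 102 and 2, and those lower 250, 2, 26, 205, 160, 156, 3, 41, 34, 40, 181 and 9. Thinning to 1000 UMIs gave 0. The cause of this spread was not tested. Of the 332 genes, 299 of 314 tested kept their sign with free RNA subtracted and 330 of 332 without the large nuclei. All 332 kept their sign without each aged library, a fit with no test.

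Against fibroblasts, 101 genes differed with free RNA subtracted (37 larger, 64 smaller) and 266 without the large nuclei (71 and 195), and all 46 genes of the designed fit were called in both. Against all other nuclei, 104 differed without the large nuclei (44 and 60), 44 of the 60 among them, and 21 were smaller with the size factors of DESeq2. Igfbp5 (adjusted p = 0.331), Ntn1 (adjusted p = 0.184), Agtr1a (adjusted p = 0.256) and Gbp4 (adjusted p = 0.0894) lost their edgeR call there without the large nuclei. With the robust prior Gbp4 (0.0615), Hba-a2 (1), Ntn1 (0.0672), Ccm2l (0.0698) and Tpd52l1 (0.0517) did not pass by adjusted p, and with the size factors of DESeq2 Gbp4 (0.0693) and Hba-a2 (0.0542, from 0.0474 as designed) did not. All 46 and all 60 kept their sign without each aged library. The fit against all other nuclei was not run with free RNA subtracted, since the neuronal genes that scale it belong to those nuclei. The ratio of shares ranged from 1.32 to 1.69 without each aged library.

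The log2 of the aged over the adult summed level was 0.27 for the arterial list, Stmn2 included (0.50 thinned, 0.48 with free RNA subtracted). It was 0.21 for capillary markers (0.043 with free RNA subtracted) and 0.38 for venous markers (0.19 thinned, 0.18 with free RNA subtracted). For lymphatic markers it was 0.18 (-0.79 thinned, and -0.50 to 0.64 without each aged library). Signs turned for Cdkn1a (0.21 with more than 2000 genes, 0.061 with free RNA subtracted), Gja1 by age (-0.0711 with no UMI of the 7 genes), Nos3 (-0.10 with no UMI of the 7 genes, -0.25 thinned, -0.33 to 0.63 without each aged library), Plac9 (-1.39 as designed, 0.57 thinned), Plvap (-0.56 with no UMI of the 7 genes) and Slc2a1 (-0.23 with more than 2000 genes, -0.15 with free RNA subtracted). No paired analysis was possible because the groups share only replicate number 1. With 1 adult library, a difference of that library alone and age cannot be told apart.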
